A study of Mus musculus with 8 samples.

Results

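Aminoacyl-tRNA synthetases attach each amino acid to its matching transfer RNA, the step that lets the ribosome read the genetic code. Animal cells hold separate sets of these enzymes for the cytoplasm and for mitochondria, and both sets are encoded in the nucleus, the mitochondrial ones mostly by genes whose names end in 2. The genes described here were taken by name: 36 of the 20388 genes kept from the files, 20 of them for cytoplasmic and 16 for mitochondrial enzymes. Each of the 36 had 1 entry in the tables, and all 36 were among the 11867 genes tested, those that reached 1 FPKM in 2 or more of the 8 libraries. FPKM is the number of fragments scaled by transcript length and by the mapped fragments of the library, so levels can be set side by side between genes.

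The mouse embryonic stem cells behind the libraries carry floxed Htatsf1 and CreERT2, a Cre recombinase that tamoxifen activates, and were grown on mouse embryonic fibroblasts. Htatsf1 encodes a splicing-related protein that binds RNA and works with U2 snRNP. The groups were tamoxifen for 48 h, ethanol (the vehicle) for 48 h, tamoxifen for 72 h and ethanol for 72 h, with 2 libraries each. All 4 groups carry the floxed allele and CreERT2, so no group without CreERT2 received tamoxifen, and RNA of the fibroblasts is part of every library. Whether the replicates were grown as independent cultures is not in the labels, and the spread on which every p-value rests may thus be technical.

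The targeted gene followed the labels. Htatsf1 had 4.13 and 3.78 FPKM in tamoxifen, against 23.0 and 21.7 FPKM in ethanol, at 48 h. At 72 h the values were 4.12 and 4.63 FPKM in tamoxifen and 22.7 FPKM in both ethanol libraries. Fragments implied by the confidence bounds of the deposited values summed to between 8985864 and 16846629 per library. Of 12 stem cell markers 11 were detected in every library, and all 20 markers of fibroblasts were too. Sox2 was listed at 0 in all 8 FPKM tables, whereas the authors' deposited tables give it mean scaled counts of 5819 in tamoxifen and 5907 in ethanol at 48 h and of 7871 in tamoxifen and 9365 in ethanol at 72 h, so that 0 does not show an absence of its RNA. The summed level of the fibroblast markers was 734 to 741 FPKM in tamoxifen and 475 to 499.6 FPKM in ethanol at 48 h, and 1066 to 1134 FPKM in tamoxifen and 466 to 489 FPKM in ethanol at 72 h. Every fibroblast marker rose at both times, with a median log2 change of 0.59 at 48 h and 1.1 at 72 h. Among all tested genes 7.88% were called higher at 48 h and 20.1% at 72 h. The summed stem cell markers were 3087 to 3187 FPKM in tamoxifen and 3214 to 3298 FPKM in ethanol at 48 h. At 72 h they were 3393 to 3859 FPKM in tamoxifen and 4275 to 4419 FPKM in ethanol. Much of that sum was Dppa5a, with means of 1938 FPKM in tamoxifen and 2516 FPKM in ethanol at 72 h. Of the 11 tested stem cell markers 1 fell at 48 h and 6 at 72 h, beside 4.47% and 18.5% of all tested genes, and 0 rose. Pou5f1, Utf1 and Dppa4 had higher means in tamoxifen than in ethanol at 72 h. The part of these shifts in the changes below was not tested, and in such mixed bulk RNA fewer cells of a type and less RNA per cell cannot be told apart.

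Many genes of cytoplasmic synthetases are known to be activated in amino acid shortage by the transcription factor ATF4, which binds an element with the letters TGATGNAAN. Promoter windows of 300 bases, from 250 before to 50 after each RefSeq start (GRCm38.p6), were found for 27 of the 36 genes and searched for these letters on both strands. Cars, Hars, Lars, Nars, Rars, Vars, Wars, Hars2 and Pars2 had no window in the table used, so nothing is shown for them. The letters occurred in 5 of 13 windows of cytoplasmic genes (38.5%) and in 0 of 14 mitochondrial genes. Among all genes with a window, 1215 of 27025 held them (4.50%). The 5 windows are shown from 130 bases before to 30 bases after the start, on the strand of the gene, because they set the cytoplasmic genes beside the mitochondrial ones by sequence. Capitals mark the match, which reads NTTNCATCA where it lies on the other strand. The stretches are chr8:111033712-111033871 (plus strand) for Aars, chr13:49682000-49682159 (plus) for Iars, chr15:11399629-11399788 (minus) for Tars, chr6:55037871-55038030 (plus) for Gars and chr4:129189773-129189932 (plus) for Yars.
Aars: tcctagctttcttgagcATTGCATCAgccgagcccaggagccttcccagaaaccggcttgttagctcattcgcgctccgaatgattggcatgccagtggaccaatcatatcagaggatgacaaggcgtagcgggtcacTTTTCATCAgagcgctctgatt
Iars: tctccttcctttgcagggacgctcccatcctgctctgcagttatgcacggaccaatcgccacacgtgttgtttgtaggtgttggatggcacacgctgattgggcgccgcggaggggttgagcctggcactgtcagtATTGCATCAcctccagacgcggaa
Tars: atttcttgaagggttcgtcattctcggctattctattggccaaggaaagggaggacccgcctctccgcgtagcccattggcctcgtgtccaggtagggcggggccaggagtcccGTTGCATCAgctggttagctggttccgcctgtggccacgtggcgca
Gars: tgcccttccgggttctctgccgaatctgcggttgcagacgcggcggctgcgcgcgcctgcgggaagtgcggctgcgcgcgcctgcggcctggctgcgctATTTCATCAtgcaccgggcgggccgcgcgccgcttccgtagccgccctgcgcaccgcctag
Yars: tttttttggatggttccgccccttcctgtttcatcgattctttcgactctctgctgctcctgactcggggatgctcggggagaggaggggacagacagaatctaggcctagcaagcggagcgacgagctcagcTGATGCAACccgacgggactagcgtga
In Aars the letters begin 113 bases before the start and again at base 9 of the transcript, and in Iars at base 7 of the transcript. The match lies 16 bases before the start in Tars, 31 bases before it in Gars and at base 4 of the transcript in Yars. Such a match is a description of the sequence and no evidence that a factor binds there.

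By level the 2 sets were nearly separate. Mean FPKM over the 8 libraries ran from 42.0 (Cars) to 195 (Kars) for cytoplasmic genes, with a median of 84.6, and from 1.49 (Wars2) to 29.7 (Yars2) for mitochondrial genes, with a median of 9.01. The median of all tested genes was 10.4 FPKM. All 20 cytoplasmic genes ranked above all 16 mitochondrial genes by mean level, and single libraries overlapped between Cars, as low as 32.0 FPKM, and its neighbours in the order Yars2, as high as 36.8 FPKM, and Iars2. Kars, for lysine, and Gars, for glycine, stood highest, and each of these genes gives both the cytoplasmic and the mitochondrial enzyme. Between Gars and Nars, the next in order, the library values did not overlap, nor did they between Sars2 and Ears2 or between Pars2 and Wars2, while all other neighbours overlapped. In the 13 amino acids with 1 gene for each compartment the cytoplasmic gene stood 1.59 times (Yars over Yars2) to 29.3 times (Nars over Nars2) above its partner, with a median of 8.69. The implied fragments behind a library's value were 999 to 11334 for cytoplasmic and 58 to 1931 for mitochondrial genes, so that counting error is larger for the second set.

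**Figure D1:**
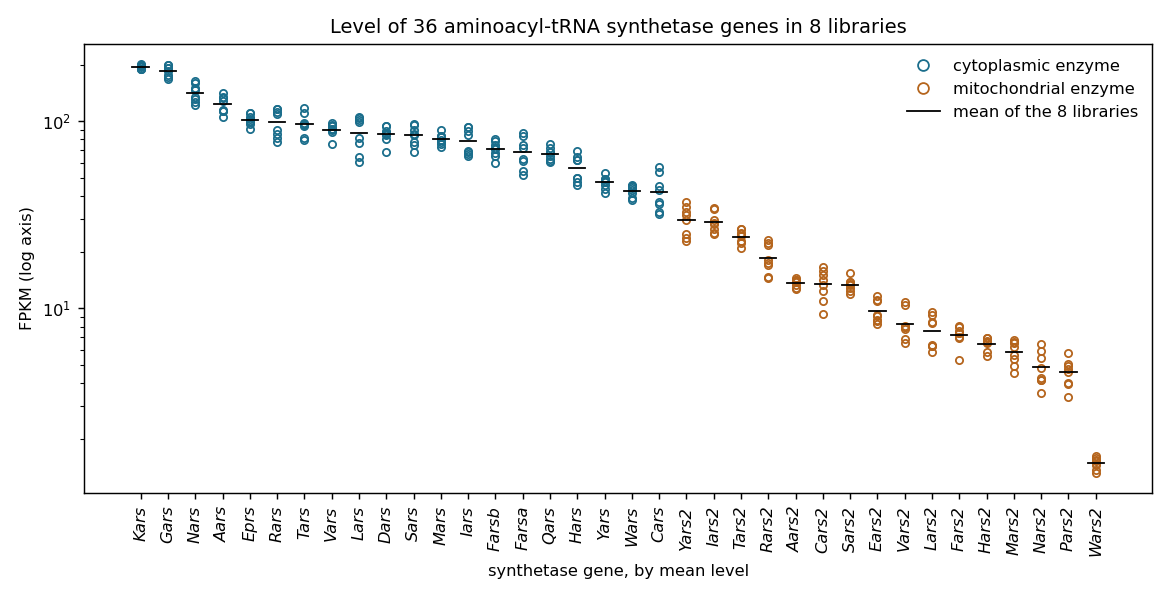
FPKM of each of the 36 synthetase genes on a log axis, ordered by mean level, with 1 open circle per library and a line at the mean of the 8 libraries; colours mark the compartment of the enzyme. The 20 cytoplasmic genes lie to the left of the 16 mitochondrial genes, with Kars highest at a mean of 195 FPKM and Wars2 lowest at 1.49 FPKM.

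The comparison at 48 h asked which genes differed early on once deletion of Htatsf1 was induced. Cytoplasmic synthetase genes were lower in tamoxifen: 8 of 20 fell, 0 rose and 12 did not pass the limma test at an adjusted p of 0.05. Across all tested genes 4.47% were called lower and 7.88% higher. Their median log2 change was -0.17, against 0.02 for all tested genes. Changes are on the log2(FPKM + 1) scale, which understates those of genes with low values. In 18 of the 20 both tamoxifen libraries lay below both ethanol libraries, which held for 26.1% of all tested genes, and Wars alone lay above. Summed over the 20 genes the level was 1780.5 and 1764 FPKM in tamoxifen, against 2021 and 1989.9 FPKM in ethanol. The 5 largest falls were those of Cars, Lars, Iars, Sars and Nars.

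Cars, for cysteine, is on chromosome 7 from 150743135 to 150785995 of mm9. Its level was 32.9 and 32.0 FPKM in tamoxifen, against 45.1 and 42.9 FPKM in ethanol (log2 change -0.43 ± 0.06 SE, adjusted p = 0.00166). Lars, for leucine, on chromosome 18 from 42362003 to 42421725, had 81.4 and 76.4 FPKM in tamoxifen and 101 and 104 FPKM in ethanol (-0.38 ± 0.06 SE, adjusted p = 0.00361). Both tamoxifen libraries lay well below both ethanol libraries for these genes. Iars, for isoleucine, on chromosome 13 from 49777499 to 49829636, had 68.7 and 69.5 FPKM in tamoxifen and 88.9 and 84.0 FPKM in ethanol (-0.32 ± 0.05 SE, adjusted p = 0.00427). For serine, Sars on chromosome 3 from 108227782 to 108248177 had 74.2 and 68.3 FPKM in tamoxifen and 89.9 and 83.8 FPKM in ethanol (-0.28 ± 0.07 SE, adjusted p = 0.0216). Nars, for asparagine, on chromosome 18 from 64659301 to 64676211, had 135 and 131 FPKM in tamoxifen and 163 and 159 FPKM in ethanol (-0.27 ± 0.05 SE, adjusted p = 0.00815). The other falls were those of Aars for alanine (-0.26, adjusted p = 0.0147), Tars for threonine (-0.23, adjusted p = 0.0162) and Farsa, the catalytic alpha subunit for phenylalanine (-0.21, adjusted p = 0.031). Those 8 genes do not share an amino acid class: they serve small, polar, aromatic and branched-chain residues.

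Leaving out 1 of the 48 h libraries lowered the count of falls to 5 (tamoxifen replicate 1) or to 3 (tamoxifen replicate 2, ethanol replicate 1 or ethanol replicate 2), and Lars, Cars and Iars kept their calls each time. A group with a library left out has 1 library, which the fit assumes to vary like those of the other groups, here and wherever a library is left out. Shares of all tested genes called in such fits, or under other changed settings, are not given here. Those counts thus show only how far the calls moved and are no result about the genes counted. Aars, Farsa and Tars lost theirs without any 1 of the 4 (adjusted p up to 0.128, 0.182 and 0.138), and Nars and Sars without any but tamoxifen replicate 1 (up to 0.0706 and 0.159). The calls of Aars, Farsa and Sars also ended without the filter on low values, those of Farsa, Sars and Tars without the mean trend and that of Farsa after quantile normalization.

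Among the 16 mitochondrial synthetase genes 0 fell and 0 rose at 48 h by limma. The median log2 change was -0.13, and 4 had an unadjusted p under 0.05. Both tamoxifen libraries lay below both ethanol libraries in 7 genes and above them in 2, which held for 26.1% and 32.7% of all tested genes. The summed level was 196 and 193 FPKM in tamoxifen, against 209 and 207 FPKM in ethanol. Of the 3 with the smallest p, Vars2 for valine had 6.90 and 6.58 FPKM in tamoxifen and 7.80 and 8.05 FPKM in ethanol (log2 change -0.21 ± 0.07 SE, adjusted p = 0.0906). Iars2 for isoleucine had 24.9 and 25.4 FPKM in tamoxifen and 28.5 and 28.2 FPKM in ethanol (-0.17 ± 0.06 SE, adjusted p = 0.116). Tars2 for threonine had 25.4 and 26.5 FPKM in tamoxifen and 24.2 and 21.1 FPKM in ethanol (0.19 ± 0.07 SE, adjusted p = 0.125). Fewer calls in this set do not show a smaller change than in the cytoplasmic set, and the difference between the sets was not tested. Without tamoxifen 48 h replicate 1 the gene called lower was Rars2, and without tamoxifen 48 h replicate 2 it was Fars2, which had 5.32 and 7.62 FPKM in these libraries.

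**Figure D2:**
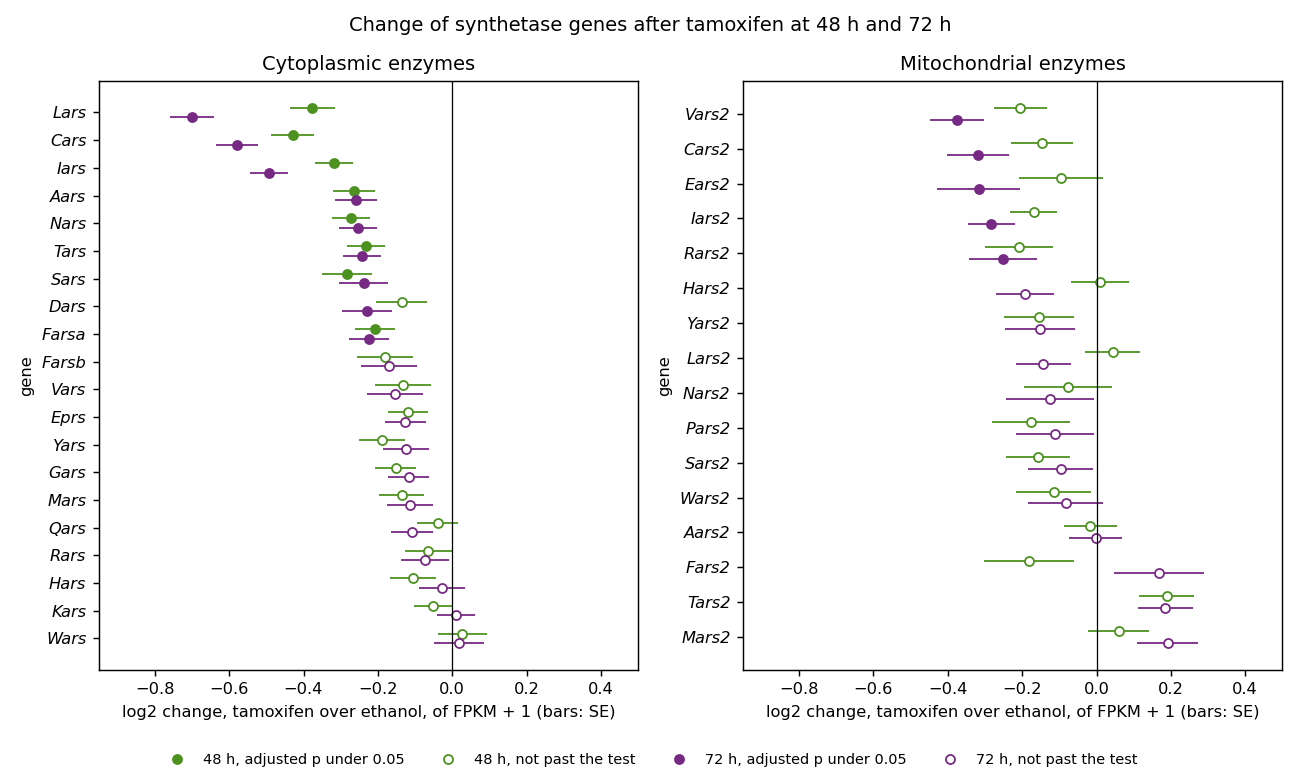
Log2 change of FPKM + 1, tamoxifen over ethanol, of each synthetase gene at 48 h (green) and 72 h (purple), with bars for the SE of the limma fit; filled points passed an adjusted p of 0.05. Most points lie left of 0 in both panels, Lars reaches -0.70 at 72 h, and the filled points at 48 h are all in the cytoplasmic panel.

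At 72 h, 1 day later, 9 of 20 cytoplasmic genes fell, 0 rose and 11 did not pass, where 18.5% of all tested genes were called lower and 20.1% higher. The 9 were the 8 genes of 48 h and Dars, for aspartate. Their set had a median log2 change of -0.16, against -0.01 for all tested genes. Both tamoxifen libraries lay below both ethanol libraries in 15 of the 20, beside 34.5% of all tested genes, and above them in 0. The summed level was 1695 and 1646 FPKM in tamoxifen and 1919 and 1908 FPKM in ethanol, a difference of -12.7% at 72 h and of -11.6% at 48 h.

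Lars had the largest fall at 72 h, with 64.3 and 60.8 FPKM in tamoxifen, against 98.7 and 106 FPKM in ethanol (log2 change -0.70 ± 0.06 SE, adjusted p = 1.71e-05). By mean level Lars fell by 38.8% at 72 h and by 23.1% at 48 h. Cars had 37.0 and 36.1 FPKM in tamoxifen and 56.9 and 53.4 FPKM in ethanol (-0.58 ± 0.06 SE, adjusted p = 4.64e-05). Its 4 tamoxifen libraries all lay below its 4 ethanol libraries, as those of Iars, Lars, Aars and Nars did. Iars had 66.4 and 64.9 FPKM in tamoxifen and 92.5 and 93.1 FPKM in ethanol (-0.49 ± 0.05 SE, adjusted p = 6.5e-05). Aars, on chromosome 8 from 113557867 to 113580770, had 113 and 106 FPKM in tamoxifen and 134 and 128 FPKM in ethanol (-0.26 ± 0.06 SE, adjusted p = 0.00539). Nars had 122 and 127 FPKM in tamoxifen and 147 and 151 FPKM in ethanol (-0.25 ± 0.05 SE, adjusted p = 0.0032). The 4 others that fell at 72 h lay between -0.24 and -0.23 on the log2 scale: Tars (adjusted p = 0.00427), Sars (0.0175), Dars (0.0227) and Farsa (0.00798). Dars lost this call without tamoxifen 72 h replicate 1, ethanol 72 h replicate 1 or ethanol 72 h replicate 2 (adjusted p up to 0.143), Sars without tamoxifen 72 h replicate 2 or either ethanol 72 h library (up to 0.103) and Farsa without ethanol 72 h replicate 2 (0.0509). Dars and Sars also lost theirs without the filter on low values, and Dars without the trend and in the 72 h libraries alone.

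**Figure D3:**
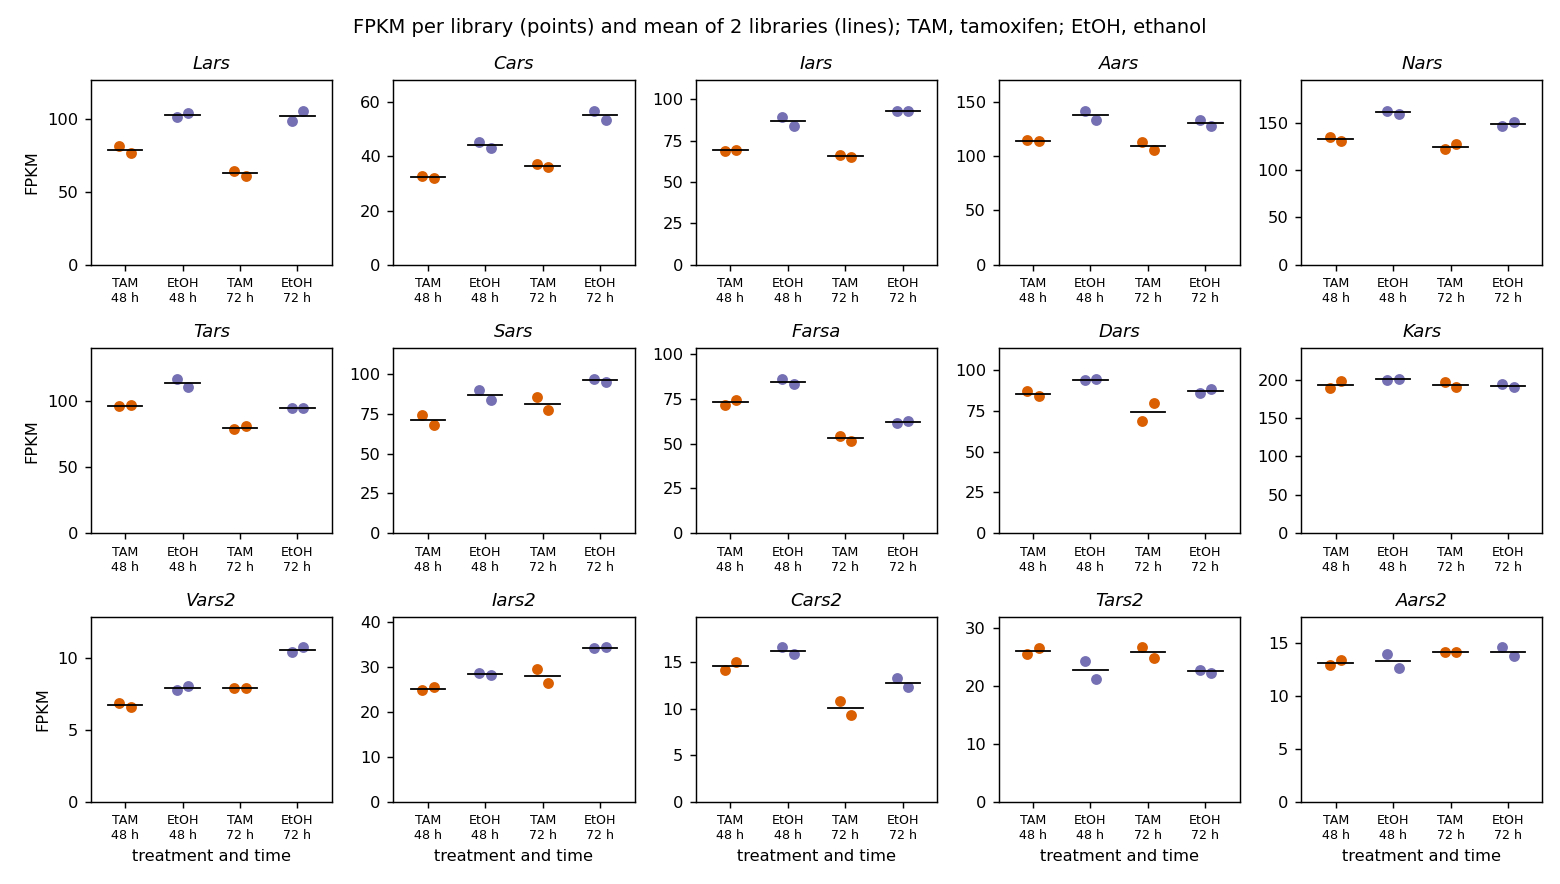
FPKM of 15 synthetase genes by treatment and time, with 1 point per library (replicate 1 left, replicate 2 right), a line at the mean of 2 libraries and every axis from 0; TAM is tamoxifen and EtOH ethanol. The 9 cytoplasmic genes from Lars to Dars are the ones that fell at 72 h, Kars and Aars2 lie level across the groups, and the tamoxifen points of Tars2 lie above its ethanol points.

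The remaining 11 cytoplasmic genes did not pass the limma test at either time before any setting was changed. Yars was called lower at 48 h with median-ratio scaling. Calls were also gained among these genes at 72 h in fits without 1 of the tamoxifen 72 h libraries. Kars had 189 and 198 FPKM in tamoxifen and 199.8 and 201 FPKM in ethanol at 48 h (log2 change -0.05 ± 0.05 SE, adjusted p = 0.558). At 72 h it had 197 and 190.1 FPKM in tamoxifen and 194 and 190.2 FPKM in ethanol (0.01 ± 0.05 SE, adjusted p = 0.905). Its groups overlapped at 72 h. Gars had 167 and 171 FPKM in tamoxifen and 191 and 185 FPKM in ethanol at 48 h (-0.15 ± 0.06 SE, adjusted p = 0.102), and 192 and 177 FPKM in tamoxifen and 200.4 and 199.8 FPKM in ethanol at 72 h (-0.12 ± 0.06 SE, adjusted p = 0.12). The groups of Gars did not overlap at either time, yet neither change passed. Wars for tryptophan stood at 0.03 and 0.02 at 48 h and 72 h, Qars for glutamine at -0.04 and -0.11, and Rars for arginine at -0.06 and -0.07. Hars for histidine stood at -0.11 and -0.03, Farsb, the beta subunit for phenylalanine, at -0.18 and -0.17, and Vars for valine at -0.13 and -0.15. Eprs, which joins the glutamate and proline enzymes in 1 protein, stood at -0.12 and -0.13, Mars for methionine at -0.14 and -0.11, and Yars for tyrosine at -0.19 and -0.12. Cars, Lars and Nars fell at both times and had no window, so the split by letters that follows leaves them out. Among all tested genes 4.47% were called lower at 48 h and 18.5% at 72 h. Of the 5 genes with the letters TGATGNAAN in their window, Aars, Iars and Tars fell at both times and Gars and Yars did not pass. Of the 8 cytoplasmic genes searched without a match, Farsa and Sars fell at both times and Dars at 72 h. Eprs, Farsb, Kars, Mars and Qars did not pass. These are limma calls, and the split differs in the authors' deposited tables. Those also called lower Gars and Farsb at both times, Dars, Mars and Yars at 48 h and Eprs at 72 h. They did not call Farsa at 72 h.

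Grouped by assembly, 8 of the 20 cytoplasmic enzymes are known to sit in the multisynthetase complex and 12 are outside it. In the complex 2 of 8 genes fell at 48 h (Iars and Lars) and 3 at 72 h (with Dars), with medians of -0.13 and -0.12. Outside it 6 of 12 fell at each time, with a median of -0.20 at both. By catalytic fold 3 of 9 class I genes fell at each time, and 5 of 10 class II genes at 48 h and 6 at 72 h, with Eprs, which has a domain of each class, left out. Of all tested genes 4.47% were called lower at 48 h and 18.5% at 72 h, and the difference between these subgroups was not tested.

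Of the 16 mitochondrial genes 5 fell at 72 h, beside 18.5% of all tested genes, and 0 rose. The median log2 change was -0.13, and the summed level was 187 and 184 FPKM in tamoxifen and 202 and 206 FPKM in ethanol. Both tamoxifen libraries lay below both ethanol libraries in 9 genes and above them in 3, which held for 34.5% and 35.2% of all tested genes. Vars2, on chromosome 17 from 35792580 to 35804537, had 7.95 and 7.94 FPKM in tamoxifen and 10.4 and 10.8 FPKM in ethanol (log2 change -0.37 ± 0.07 SE, adjusted p = 0.00246). Cars2, for cysteine, had 10.9 and 9.31 FPKM in tamoxifen and 13.3 and 12.3 FPKM in ethanol (-0.32 ± 0.08 SE, adjusted p = 0.0123). The groups of these genes did not overlap. Ears2, for glutamate, had 9.23 and 8.57 FPKM in tamoxifen and 11.7 and 11.0 FPKM in ethanol (-0.32 ± 0.11 SE, adjusted p = 0.0465). Iars2, on chromosome 1 from 187110541 to 187153280, had 29.6 and 26.4 FPKM in tamoxifen and 34.1 and 34.3 FPKM in ethanol (-0.28 ± 0.06 SE, adjusted p = 0.00603). Rars2, for arginine, had 14.4 and 14.8 FPKM in tamoxifen and 17.1 and 18.1 FPKM in ethanol (-0.25 ± 0.09 SE, adjusted p = 0.0499). Tars2 had 26.6 and 24.9 FPKM in tamoxifen and 22.8 and 22.2 FPKM in ethanol (0.19 ± 0.07 SE, adjusted p = 0.0704). Its cytoplasmic counterpart Tars fell at both times, and the difference between the 2 genes was not tested.

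Vars2 and Iars2 kept their calls at 72 h without any 1 of the 8 libraries and under each of 8 other settings. Without 1 of the 72 h libraries the count of mitochondrial falls was 3 (tamoxifen replicate 1), 2 (tamoxifen replicate 2), 3 (ethanol replicate 1) or 3 (ethanol replicate 2). Cars2 lost its call without tamoxifen 72 h replicate 2 or ethanol 72 h replicate 1 (adjusted p up to 0.086) and without the filter on low values. Ears2 and Rars2 each lost theirs without any 1 of 6 libraries (up to 0.176 and 0.201), the 4 of 72 h among them and for Ears2 both tamoxifen 48 h libraries, for Rars2 both ethanol 48 h libraries. They also lost them without the filter, without the trend and with the replicate number as a block, and Rars2 with a pseudocount of 5. The remaining mitochondrial genes lay between -0.19 (Hars2, for histidine) and 0.19 (Mars2, for methionine) at 72 h. Aars2, for alanine, stood at -0.02 at 48 h and at -0.00 at 72 h, with 14.2 FPKM in both tamoxifen libraries and 14.6 and 13.8 FPKM in ethanol at 72 h, while Aars fell at both times. The lowest, Wars2 for tryptophan, had 1.46 and 1.37 FPKM in tamoxifen and 1.58 and 1.64 FPKM in ethanol at 48 h, and 1.33 and 1.47 FPKM in tamoxifen and 1.54 FPKM in both ethanol libraries at 72 h. The highest of the set, Yars2 for tyrosine, had 22.8 and 24.9 FPKM in tamoxifen and 23.7 and 29.8 FPKM in ethanol at 72 h, groups that overlapped, and 32.8 and 31.5 FPKM in tamoxifen and 36.8 and 34.99 FPKM in ethanol at 48 h, which did not.

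Within a library the summed cytoplasmic level was 9.08 and 9.15 times the summed mitochondrial level in tamoxifen and 9.67 and 9.61 times in ethanol at 48 h. It was 9.06 and 8.97 times in tamoxifen and 9.48 and 9.26 times in ethanol at 72 h. Among the 13 amino acids with a gene for each compartment, the log2 change of the cytoplasmic gene was the lower one in 10 at 48 h and in 8 at 72 h. Lars lay at -0.70 and Lars2 at -0.14 at 72 h, whereas Vars lay at -0.15 and Vars2 at -0.37. The order of the 2 medians was not kept in every setting. After quantile normalization they were -0.151 in both sets at 48 h. At 72 h they were then -0.145 for cytoplasmic and -0.172 for mitochondrial genes. With a pseudocount of 5 they were -0.16 and -0.084 at 48 h and -0.153 and -0.0898 at 72 h, in the same order of sets. The difference between the sets was not tested.

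The change at 72 h was set against the change at 48 h by the interaction of treatment and time. In limma 0 of 36 synthetase genes passed, 2 had an unadjusted p under 0.05, and 3.45% of all tested genes were called (1.45% lower and 2.00% higher). The smallest adjusted p was that of Lars, at 0.0654 for a difference of -0.32 on the log2 scale. With quantile normalization 1 cytoplasmic gene was called lower, and without tamoxifen 48 h replicate 2 1 mitochondrial gene was called higher.

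The authors' deposited table of the 48 h comparison, made from counts over size factors, called 14 of the 20 cytoplasmic genes lower in tamoxifen and 0 higher at an adjusted p of 0.05, beside 5.31% of all genes in it called lower and 6.62% higher. The 72 h table by the authors, also deposited, called 12 lower and 0 higher, beside 15.5% of all genes called lower and 16.5% higher. Cytoplasmic genes called lower there but not by limma were Dars, Farsb, Gars, Mars, Vars and Yars at 48 h. At 72 h they were Eprs, Farsb, Gars and Rars. Of the 16 mitochondrial genes the authors' deposited tables called 1 lower at 48 h and 4 lower and 1 higher at 72 h, the higher one being Tars2 (log2 change 0.21, adjusted p = 0.0231). Of the genes called lower here at 72 h, the authors' deposited table did not call Cars2 (log2 change -0.13, adjusted p = 0.576), Ears2 (-0.31, adjusted p = 0.0511) and Farsa (-0.17, adjusted p = 0.059), while among mitochondrial genes it also called Nars2 (-0.26, adjusted p = 0.0495). Lars stood at -0.44 at 48 h and at -0.78 at 72 h in the authors' deposited tables, and Cars at -0.48 and -0.53.

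Of 13 other genes of tRNA charging 1 fell at 48 h and 2 at 72 h, and 0 rose, with medians of -0.15 and -0.05. Among all tested genes 4.47% were called lower at 48 h and 18.5% at 72 h, so these counts are no result about the 13 genes. Of the 3 scaffold proteins of the multisynthetase complex, Eef1e1 fell at 72 h, with 63.0 and 74.9 FPKM in tamoxifen and 91.9 and 102 FPKM in ethanol (-0.49 ± 0.08 SE, adjusted p = 0.00135). At 48 h it had 86.6 and 79.5 FPKM in tamoxifen and 96.9 and 99.7 FPKM in ethanol (-0.24 ± 0.08 SE, adjusted p = 0.0881). Aimp2 fell at 48 h (-0.24, adjusted p = 0.0359) and stood at -0.03 at 72 h (adjusted p = 0.718), and Aimp1 stood at 0.05 and 0.00. Aarsd1, which removes wrongly attached amino acids from alanine tRNA, fell at 72 h (-0.17, adjusted p = 0.0325). The authors' deposited tables did not call Aarsd1 at 72 h (adjusted p = 0.109) and called Eef1e1 lower at 48 h too (adjusted p = 0.00329). They also called Pet112, another of the 13 genes, higher at 72 h (log2 change 0.34, adjusted p = 0.0337). Aimp2 lost its call without any 1 of the 4 libraries of 48 h (adjusted p up to 0.181), without the trend and with all genes kept whatever their level. Aarsd1 lost its call without tamoxifen 72 h replicate 2, ethanol 72 h replicate 1 or ethanol 72 h replicate 2 (up to 0.125), after quantile normalization, without the trend and in the 72 h libraries alone. The count of falls at 48 h was 0 without tamoxifen 48 h replicate 1, ethanol 48 h replicate 1 or ethanol 48 h replicate 2, and 3 without either tamoxifen 72 h library or with median-ratio scaling.

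A list of 24 genes known as ATF4 targets, with no synthetase in it, is given for comparison. Of its 23 tested genes 12 fell and 2 rose at 48 h, and 14 fell and 5 rose at 72 h, with medians of -0.28 and -0.29. Of all tested genes 4.47% fell and 7.88% rose at 48 h, and 18.5% fell and 20.1% rose at 72 h, so the count of rises at 72 h is near that of all genes. The count of falls at 48 h was 7 without tamoxifen 48 h replicate 2, ethanol 48 h replicate 1 or ethanol 48 h replicate 2, and 5 without the filter on low values. Atf4 itself, named after its values were seen like the others here, fell at both times (-0.37, adjusted p = 0.0122, and -0.29, adjusted p = 0.013). Those that rose at 72 h were Ddit3, Ddit4, Cebpb, Sesn2 and Ppp1r15a, led by Ddit3, which encodes the stress factor CHOP (adjusted p = 5.74e-05) and shares 68 bases with the entry of Mars. Ddit3 had 29.9 and 34.5 FPKM in tamoxifen and 13.2 and 15.4 FPKM in ethanol at 72 h. Whether the fall of the synthetase genes follows that of Atf4 was not tested.

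**Figure D4:**
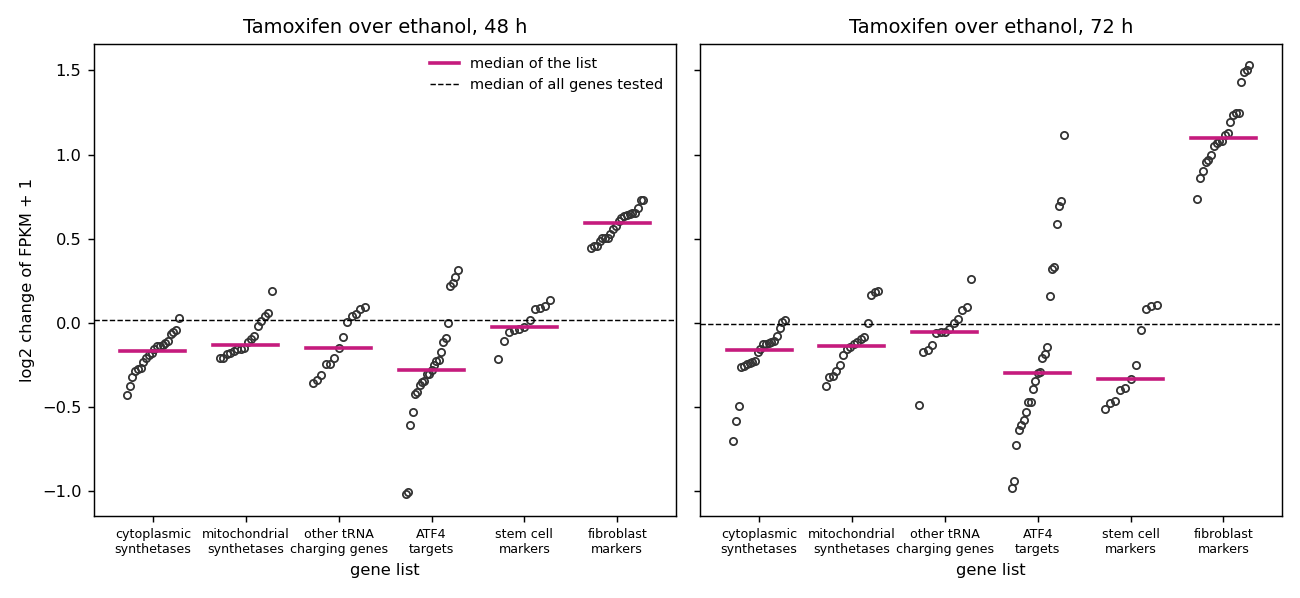
Log2 change of FPKM + 1, tamoxifen over ethanol, of the tested genes of 6 lists at 48 h (left) and 72 h (right), with 1 circle per gene, a line at the median of each list and a dashed line at the median of all tested genes. The medians of both synthetase sets lie below 0 at both times, near -0.17 and -0.13, while that of the fibroblast markers lies at 0.59 and at 1.1. At 48 h and 72 h the median of the stem cell markers lies at -0.03 and -0.33. That of the ATF4 targets lies at -0.28 and -0.29, and that of the other tRNA charging genes at -0.15 and -0.05.

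Levels also moved between the times of treatment, in libraries that the comparisons above use as well. In ethanol, 72 h against 48 h, 2 cytoplasmic genes rose (Cars and Qars) and 4 fell (Farsa, Hars, Rars and Tars), and 5 mitochondrial genes rose (Iars2, Lars2, Nars2, Pars2 and Vars2) and 4 fell (Cars2, Mars2, Rars2 and Yars2). Across all tested genes 57.2% were called, 38.0% higher and 19.2% lower, and the median log2 change was 0.11. Rars had 81.5 and 89.4 FPKM at 72 h and 116 FPKM in both libraries at 48 h (-0.44 ± 0.06 SE, adjusted p = 0.000262). Lars2 had 9.52 and 9.27 FPKM at 72 h and 6.33 and 5.88 FPKM at 48 h (0.55 ± 0.07 SE, adjusted p = 0.000146). In tamoxifen, 72 h against 48 h, 2 cytoplasmic genes rose (Cars and Sars) and 6 fell (Dars, Farsa, Hars, Lars, Rars and Tars), and 4 mitochondrial genes rose (Lars2, Nars2, Pars2 and Vars2) and 5 fell (Cars2, Hars2, Mars2, Rars2 and Yars2), beside 37.5% of all tested genes called higher and 19.6% lower, 57.1% in all. With median-ratio scaling the median of all tested genes was -0.0017 in ethanol and 0.012 in tamoxifen, against 0.11 in each before it. The counts of cytoplasmic genes were then 1 higher and 12 lower in ethanol and 0 higher and 13 lower in tamoxifen. Quantile normalization gave 6 higher in each. The shares of all tested genes called under these scalings are not given here, so those counts are no result about the synthetase genes. Without 1 library the count of cytoplasmic genes that rose was 1 in ethanol without ethanol 48 h replicate 1 or ethanol 72 h replicate 1, and in tamoxifen it was 1 without tamoxifen 48 h replicate 1 and 0 without tamoxifen 48 h replicate 2 or tamoxifen 72 h replicate 1. The count of mitochondrial genes that fell in tamoxifen was 3 without any 1 of the 4 tamoxifen libraries, and that of genes that rose was 2 without tamoxifen 48 h replicate 1 or tamoxifen 72 h replicate 2. The names of the 48 h files and of the 72 h files differ in a number that no label explains, so the time and whatever that number stands for cannot be told apart.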

How the data were processed

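RNA enriched for mRNA with beads was sequenced as paired ends, per the labels' protocols. The authors deposited FPKM and its confidence bounds for every gene, library by library. DESeq, HTSeq, Cufflinks 1.3.0, TopHat 1.4.1 and BWA 0.6.1 are named in the submitters' processing notes, with build mm9 and no roles. The authors also deposited 1 comparison table per time: a signal of mean counts over size factors per group, a ratio (fold change), log2 fold changes of ethanol over tamoxifen, turned here, and p-values.

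Of 20789 entries 209 with a status other than OK were left out, and the entry of highest mean FPKM was kept per gene. File starts count from 0 (6933 of 7764 genes checked by length), so 1 was added. One limma fit (R 4.3.3, limma 3.58.1) of log2(FPKM + 1) over all 8 libraries, with a mean per group, no block, 4 residual degrees of freedom and a mean trend, gave two-sided p-values, adjusted by Benjamini-Hochberg over 11867 genes per contrast. The fit was also run on simulated data with independent normal noise, which cannot show whether the spread between these libraries is technical. Implied fragments are the Poisson counts whose 2 SD give the upper bound; for entries with 1 start site and at most 20 fragments, between 91.4% and 92.6% were whole within 0.02, and they cover counting error only.

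Members and lists were chosen with earlier results of these data known. Values per library are given for up to 5 called members of largest rise and fall per compartment and time (the 3 of smallest p where fewer than 3 were called), Gars, Kars, and the highest and lowest of each compartment; other genes named were picked after their values were seen. Protein sequences were not used here, and 1 further gene of tRNA charging is not reported here. Alternatives were the pseudocount, filter, scaling, trend, a replicate block, the libraries of 1 time alone and each library left out.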

Additional observations from a re-analysis of the deposited data

How the results depend on the processing

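Calls of treatment effects depended most on the filter, the trend and single libraries. Shares of all tested genes called under each alternative are not given here, so the counts below show only how far the calls moved. Without the filter on low values 5 cytoplasmic genes fell at 48 h (8 with it) and 3 mitochondrial genes at 72 h (5 with it); without the trend these counts were 5 and 3. The replicate block gave 3 mitochondrial falls at 72 h and moved no other count of synthetase genes by over 1.5 times. The replicate numbers share only a number: the differences of replicate 1 and 2 correlated between groups at -0.28 to 0.15. The numbers crossed between tamoxifen 72 h and 48 h, an alternative added after seeing the data, moved no count of that comparison by over 1.5 times. Median-ratio scaling gave a cytoplasmic median of -0.20 at 48 h. Quantile normalization gave 6 mitochondrial falls (Hars2 added) and 1 mitochondrial rise (Tars2) at 72 h. It also gave 1 cytoplasmic gene lower for the difference of the changes.

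With single libraries left out, cytoplasmic falls at 48 h ranged from 3 to 8, mitochondrial falls from 0 to 1 at 48 h and from 2 to 4 at 72 h. For the difference of the changes mitochondrial genes called higher ranged from 0 to 1 and the cytoplasmic median from -0.026 to 0.030.

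Comparisons of the times moved more. Without the filter, in ethanol 2 mitochondrial genes fell and 3 rose, and in tamoxifen 1 cytoplasmic gene rose, 3 mitochondrial genes fell and 2 rose; without the trend 0 cytoplasmic genes rose in tamoxifen. Median-ratio scaling gave 12 cytoplasmic falls and 1 rise in ethanol (median -0.20) and 13 and 0 in tamoxifen (median -0.22), with mitochondrial rises of 3 and 1 (medians -0.12 and -0.094). Quantile normalization gave 6 cytoplasmic rises in each (medians 0.025 in ethanol and -0.025 in tamoxifen) and mitochondrial rises of 3 and 1 (medians -0.14 and -0.0884). Shares of all tested genes called under these settings are not given here, so the counts show only how far the calls moved. With single libraries left out, cytoplasmic rises ranged from 1 to 2 in ethanol and from 0 to 3 in tamoxifen, where the cytoplasmic median ranged from -0.10 to -0.063, mitochondrial falls from 3 to 5 and mitochondrial rises from 2 to 4. The cause was not tested. Depth limits the mitochondrial set more than the cytoplasmic set: a library's value rests on 58 to 1931 implied fragments in mitochondrial genes and on 999 to 11334 in cytoplasmic genes.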

Other observations

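Hars and Hars2 lie beside each other on chromosome 18 of mm9, with 74 bases between the 2 entries. Their log2 changes at 72 h were -0.03 for Hars and -0.19 for Hars2, and neither passed. Without the filter on low values and after quantile normalization Hars2 was called lower at 72 h. Of the 36 synthetase genes 4 overlap another entry of the files: Aars overlaps Exosc6 by 532 bases, Iars2 overlaps Rab3gap2 by 85 bases, Mars overlaps Ddit3 by 68 bases and Yars overlaps C77080 by 30 bases. Whether reads there were told apart by strand is not given in the sources used here, so the values of these 4 genes are uncertain to that extent.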
